A study of Mus musculus with 4 samples.

Results

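The 10 genes followed here mark undifferentiated mouse embryonic stem (ES) cells, and their messages were measured in Smg6-deficient and wild-type ES cells: Dppa2, Dppa3, Dppa4, Dppa5a, Tcl1, Utf1, Fbxo15, Prdm14, Nr0b1 and Nr5a2. They were chosen by symbol, and all 10 were found among the 37224 Ensembl gene identifiers of the deposited tables, had reads in every library and passed the filter on low counts, with 20895 genes tested in all. The libraries came from ES cells labelled Smg6 deficient (2 libraries) and from ES cells labelled wild type, also called normal (2 libraries), and both groups are listed with embryo as their tissue. The sources used here do not give the strain, the Smg6 allele, the way it was inactivated, the culture medium, or whether replicates are independent cultures or clones. Effects of the genotype and of a particular line cannot be told apart, and the p-values cover the spread among these 4 libraries alone, some of which could be technical.

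Naive ES cells resemble the epiblast of the early blastocyst, and many, but not all, of the genes described here are used to recognise that state because their messages fall as cells leave it. Dppa2 and Dppa4 are paired chromatin proteins that keep developmental and germline promoters open, Dppa3 restrains the maintenance of DNA methylation, and Dppa5a is a small RNA-binding protein with a KH domain. Prdm14 is a repressor that keeps the de novo DNA methyltransferases and fibroblast growth factor receptors low, and Nr5a2 and Nr0b1 are an orphan nuclear receptor and an orphan receptor that mostly acts as a co-repressor. Utf1 is a chromatin-associated protein of pluripotent cells, Tcl1 an activator of Akt kinases, and Fbxo15 an F-box protein whose gene is a classic target of Pou5f1 and Sox2. Smg6 is the nuclease that cuts messages in nonsense-mediated decay (NMD), the pathway that removes RNAs with a stop codon in an unusual position.

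The deposited counts summed to 155391181 and 137937779 in the Smg6-deficient libraries and to 137643993 and 130888768 in the wild-type libraries. Levels are given as CPM, counts divided by the library size after TMM scaling, for replicates 1 and 2 in that order. Log2 fold changes put Smg6-deficient cells over wild-type cells, and every edgeR adjusted p is from the quasi-likelihood test, adjusted by Benjamini-Hochberg over all tested genes. Smg6 itself was at 87.6 and 86.2 CPM in Smg6-deficient cells, against 95.7 and 105 CPM in wild-type cells (log2 fold change -0.21, edgeR adjusted p = 0.089), and a count over the whole gene does not check a deletion of some exons. The ES cell markers Pou5f1, Sox2, Nanog, Zfp42, Esrrb and Klf4 were present in all 4 libraries, with Pou5f1 at 632 and 633 CPM in Smg6-deficient cells and 936 and 846 CPM in wild-type cells. All of these except Sox2 (log2 fold change -0.24, edgeR adjusted p = 0.17) were lower at an edgeR adjusted p below 0.05. Their log2 fold changes were -2.04 for Nanog, -0.79 for Klf4, -0.53 for Esrrb, and -0.49 for both Pou5f1 and Zfp42. RPKM values are reads scaled by gene length and library size. With limma-trend on log2(RPKM + 0.1), neither Pou5f1 nor Zfp42 passed (limma-trend adjusted p = 0.063 and 0.053).

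Of the 10 genes, 5 fell and 1 rose in Smg6-deficient cells, and 4 did not pass the threshold of 0.05. Tcl1, Prdm14, Dppa3, Dppa5a and Fbxo15 fell, and Utf1 rose. Dppa2, Dppa4, Nr0b1 and Nr5a2 did not pass. Across all tested genes 39.7% passed, 19.2% lower and 20.5% higher, so a called gene is common in this comparison. The median log2 fold change was -0.60 over the 10 genes and 0.01 over all tested genes. Smg6-deficient and wild-type values were fully separate for 8 of the 10 genes, against 73.2% of all tested genes. In bulk RNA, fewer cells that express a gene and less RNA per cell cannot be told apart.

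**Figure D1:**
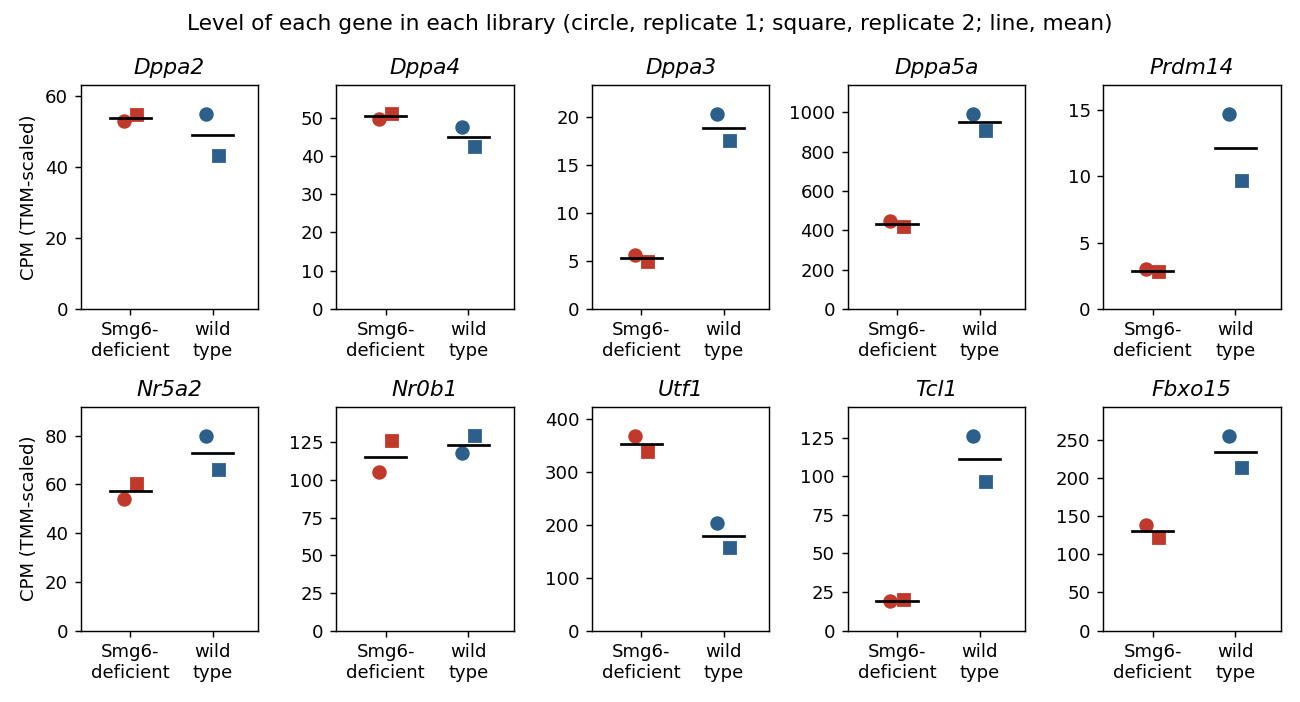
CPM of each gene in each library, with Smg6-deficient libraries in red, wild-type libraries in blue and a line at each group's mean; each panel has its own axis starting at 0. Tcl1 sits at 19.1 and 19.6 CPM in Smg6-deficient cells and at 126 and 96.3 CPM in wild-type cells, while the points of Dppa2 and Nr0b1 overlap between groups.

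Sequence upstream of the start site is described for 4 of the 10 genes, from RefSeq on GRCm38.p6. Fbxo15 was left out and is not among them. The windows of Tcl1, Utf1 and Nr0b1 are shown because these genes had the largest fall, the one rise and the one X-linked level of the set. Each runs 250 bases up to the annotated RefSeq start, 5′ to 3′ on the gene's strand, at chr12:105222738-105222987 (minus) for Tcl1, chr7:139943606-139943855 (plus) for Utf1 and chrX:86191525-86191774 (plus) for Nr0b1. Capitals mark the GC box GGGCGG, the nuclear receptor half-site AGGTCA and the TATA box TATAAA on either strand.
Tcl1: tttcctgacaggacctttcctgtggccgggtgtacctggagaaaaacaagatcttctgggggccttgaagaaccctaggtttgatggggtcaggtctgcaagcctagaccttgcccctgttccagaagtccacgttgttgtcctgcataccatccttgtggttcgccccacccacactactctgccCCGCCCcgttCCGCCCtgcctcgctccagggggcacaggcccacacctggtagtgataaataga
Utf1: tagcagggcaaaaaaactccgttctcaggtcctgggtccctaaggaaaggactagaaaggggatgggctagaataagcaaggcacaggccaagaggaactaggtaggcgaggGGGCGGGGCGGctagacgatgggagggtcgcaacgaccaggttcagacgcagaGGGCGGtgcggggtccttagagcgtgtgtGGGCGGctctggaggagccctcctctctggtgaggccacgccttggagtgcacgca
Nr0b1: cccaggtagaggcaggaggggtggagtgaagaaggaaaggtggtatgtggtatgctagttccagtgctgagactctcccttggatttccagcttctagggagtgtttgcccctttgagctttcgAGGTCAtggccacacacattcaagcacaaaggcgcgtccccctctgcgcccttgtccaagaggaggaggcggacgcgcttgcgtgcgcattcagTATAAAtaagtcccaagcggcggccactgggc

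Both the gene that fell most and the gene that rose hold GC boxes. The Tcl1 window has 2, beginning 64 and 54 bases before the start, and the Utf1 window has 4, beginning 138, 133, 85 and 56 bases before it. The first 2 of Utf1 share a base. GENCODE places the starts of Tcl1 (105222793), Utf1 (139943789) and Nr0b1 (86191764) inside these windows. The GC box nearest the RefSeq start thus lies within the GENCODE gene for both Tcl1 and Utf1. A GC box is found in 32.7% of 32851 windows of this length in the same RefSeq table. The Nr0b1 window holds 1 nuclear receptor half-site, 126 bases before the start, and 1 TATA box, 32 bases before it, which are found in 14.0% and 12.4% of windows. The half-site is the core of the sequence that Nr5a2 and related receptors recognise. Nr5a2 itself has 2 annotated starts, and the window of the one farther upstream on the gene's strand (chr1:136960449-136960698, minus) holds 1 half-site and 1 TATA box, while the other (chr1:136953631-136953880, minus) holds neither. The octamer ATGCAAAT, bound by Pou5f1, is in none of the 5 windows and in 1.6% of all windows. The windows hold 7 CpG dinucleotides for Tcl1, 14 for Utf1 and 11 for Nr0b1, and 2 and 6 for Nr5a2, with a median of 6 over all windows. These matches are a description of the letters and say nothing about binding.

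Among the chromatin proteins, the pair Dppa2 and Dppa4 showed no called difference. Dppa2 (ENSMUSG00000072419; GRCm38 chromosome 16, 48303908 to 48319723) stood at 53.0 and 54.8 CPM in Smg6-deficient cells, against 55.0 and 43.0 CPM in wild-type cells. The Smg6-deficient values lie between the wild-type ones, and the log2 fold change was 0.14 (SE 0.12, edgeR adjusted p = 0.41). Dppa4 (ENSMUSG00000058550; chromosome 16, 48283733 to 48294237) stood at 49.8 and 50.9 CPM in Smg6-deficient cells, against 47.6 and 42.2 CPM in wild-type cells. Its groups did not overlap, but the test was not passed (log2 fold change 0.16, SE 0.091, edgeR adjusted p = 0.19). Wild-type replicate 2 was the low library for both genes. Without wild-type replicate 1, so that replicate 2 stood alone for wild type, both passed as higher, Dppa2 with a log2 fold change of 0.34 (edgeR adjusted p = 0.0084) and Dppa4 with 0.27 (0.024). Without wild-type replicate 2, the log2 fold change of Dppa2 turned to -0.05 (edgeR adjusted p = 0.65) and that of Dppa4 was 0.06 (0.57).

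The pair lies head to tail on the plus strand, with 9671 bp between the end of Dppa4 and the start of Dppa2, and their levels stayed close. Per length, in the deposited RPKM (reads scaled by gene length and library size), Dppa2 over Dppa4 was 0.839 and 0.848 in Smg6-deficient libraries and 0.909 and 0.803 in wild-type libraries. Morc1, the next tested gene after Dppa2 and a germline gene of transposon silencing, lies 111514 bp away and had a log2 fold change of -0.38 (edgeR adjusted p = 0.046).

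Genes reported to depend on Dppa2 and Dppa4 were mostly lower although the pair was not. Of 14 tested genes of that list, 12 fell and 0 rose, with a median log2 fold change of -1.67. Among all tested genes 19.2% fell and 20.5% rose. Mael, a germline gene of the piRNA pathway, averaged 19.5 ± 0.85 CPM in Smg6-deficient cells and 79.5 ± 2.68 CPM in wild-type cells (SD, n = 2 each), a log2 fold change of -2.02 (edgeR adjusted p = 9.5e-05). Syce1, a synaptonemal complex gene, fell by 1.77 on the log2 scale, Zfp352, a marker of the 2-cell-like state, fell by 3.01, and Usp17la, a deubiquitinase gene, fell by 1.77. Zscan4b, Zscan4c, Zscan4d and Zscan4f, also of that state, fell too, with log2 fold changes of -1.35 for Zscan4b to -1.68 for Zscan4f and wild-type levels of 0.501 to 6.31 CPM. Mov10l1, a piRNA helicase gene, and the heart factor Nkx2-5 did not pass, with log2 fold changes of -0.12 and 0.34. Many members of this list are near-identical copies whose single counts are uncertain, and most are lowly expressed. The limma-trend test called 6 of 14 lower on log2(RPKM + 1) and 9 on log2(RPKM + 0.1). Leaving out Smg6-deficient replicate 2 lost the calls of Duxf3 and Zscan4b (edgeR adjusted p = 0.081 and 0.11), and leaving out replicate 1 that of Tdrkh (0.17).

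Dppa3 (ENSMUSG00000046323; chromosome 6, 122626410 to 122630272), the protector against maintenance methylation, was among the genes that fell. It stood at 5.64 and 4.93 CPM in Smg6-deficient cells, against 20.3 and 17.5 CPM in wild-type cells, and the groups lie far apart. The log2 fold change was -1.84 (SE 0.13, edgeR adjusted p = 0.00029), which puts wild-type cells 3.57-fold higher, and 3.52% of tested genes fell further. The next tested gene, Gdf3, which encodes a growth factor of the TGF-beta family, lies 16323 bp away and did not pass (log2 fold change -0.34, edgeR adjusted p = 0.12). Nanog, which lies on the same chromosome, fell by 2.04 on the log2 scale.

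Genes listed around maintenance methylation, the process that Dppa3 restrains, mostly did not pass the test. The list also holds Tet3, which oxidises methylcytosine and is not a maintenance gene. Of 5 tested, 1 rose and 0 fell, with a median log2 fold change of -0.10. Tet3 had -0.36 (edgeR adjusted p = 0.10), and with a correction for gene length it was lower (-0.58, 0.011). Uhrf1, the partner that Dppa3 binds, stood at 248 and 236 CPM in Smg6-deficient cells, against 254 and 264 CPM in wild-type cells (log2 fold change -0.10, edgeR adjusted p = 0.36), and the maintenance enzyme Dnmt1 had 0.23 (0.089). The member that rose was Usp7, a deubiquitinase (0.32, edgeR adjusted p = 0.023). It did not pass once Smg6-deficient replicate 1 (edgeR adjusted p = 0.18) or 2 (0.11) was left out, nor with a correction for gene length (log2 fold change 0.15, 0.22).

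Dppa5a (ENSMUSG00000060461; chromosome 9, 78367052 to 78368177) had the highest level of the set in both groups and was among the genes that fell. It stood at 445 and 417 CPM in Smg6-deficient cells, against 990.3 and 906 CPM in wild-type cells. Its log2 fold change was -1.14 (SE 0.092, edgeR adjusted p = 0.00038), with 2.20-fold higher levels in wild-type cells. Of its 7 listed relatives and partners, 3 were tested, and 2 fell and 1 rose. Ooep, a KH-domain gene of the oocyte's subcortical complex, lies 7932 bp away at higher coordinates. It stood at 43.3 and 36.0 CPM in Smg6-deficient cells, against 156 and 146 CPM in wild-type cells. Ooep fell by 1.93 on the log2 scale (edgeR adjusted p = 0.00018). Khdc3, another KH-domain gene of that complex, fell by 1.07. The one that rose, Tle6, had a log2 fold change of 0.37 (edgeR adjusted p = 0.037), and its call was lost without Smg6-deficient replicate 1 (0.17) or 2 (0.24) and with the correction for gene length (0.072).

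Reads of the Dppa genes can belong to more than 1 place. Of the 50-base words in GENCODE transcripts of Dppa5a, 38.6% also occur in transcripts of other genes, and the share was 31.3% for Dppa4, 29.1% for Dppa2 and 16.5% for Dppa3. It was 0 for Tcl1, Utf1, Fbxo15, Prdm14 and Nr0b1, and 0.0505% for Nr5a2. The pseudogene Gm6083, which shares 66 such words with Dppa5a, had 17310 and 13858 counts in Smg6-deficient libraries, against 34813 and 29938 counts in wild-type libraries. Its log2 fold change of -1.13 was close to that of Dppa5a, and the pseudogenes Gm6798 (-1.16) and Gm15310 (-1.14) moved alike. Dppa3-ps, on chromosome X, had a log2 fold change of -1.70, against -1.84 for Dppa3. The sources used here do not say how reads with several alignments were treated, so the levels of the 4 Dppa genes are uncertain. Pigp, a gene of GPI anchor synthesis that shares 70 such words with Dppa5a, had a smaller change (-0.65), and the pseudogene Gm5250, which shares 22 and had at most 30 counts in a library, had -1.53.

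Prdm14 (ENSMUSG00000042414; chromosome 1, 13113457 to 13127163) had the lowest level of the set in both groups. It stood at 2.996 and 2.75 CPM in Smg6-deficient cells, against 14.7 and 9.63 CPM in wild-type cells. Both Smg6-deficient libraries lie well below both wild-type libraries, which differ from each other more than those of any other gene of the set. The log2 fold change was -2.08 (SE 0.22, edgeR adjusted p = 0.00081), with 4.23-fold higher levels in wild-type cells. On log2(RPKM + 1), a scale that understates the change of low genes, it was -1.37 (limma-trend adjusted p = 0.015). Ncoa2, a nuclear receptor coactivator gene that lies 11942 bp away at higher coordinates, fell as well, by 0.75 on the log2 scale (edgeR adjusted p = 0.0018).

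Of 16 tested partners and reported targets of Prdm14, 4 rose and 2 fell, with a median log2 fold change of 0.02, and among all tested genes 20.5% rose and 19.2% fell. Dnmt3b, a de novo DNA methyltransferase, averaged 314 ± 43.2 CPM in Smg6-deficient cells and 104.7 ± 17.5 CPM in wild-type cells (SD, n = 2 each), a log2 fold change of 1.58 (edgeR adjusted p = 0.00055). Dnmt3a, the other de novo enzyme, rose by 1.26, and Tet1, which oxidises methylcytosine, by 0.71. Fgfr2, a fibroblast growth factor receptor, had a log2 fold change of 0.37 (edgeR adjusted p = 0.021), a call lost without Smg6-deficient replicate 1 (0.23) and with the correction for gene length (0.13). Dnmt3l, the catalytically inactive partner, had 0.31 (0.19), Fgf5 -0.58 (0.27) and Fgfr1 -0.07 (0.55), and none of these passed. The co-repressor Cbfa2t2, through which Prdm14 acts, was at 138 and 140.4 CPM in Smg6-deficient cells, against 132 and 141 CPM in wild-type cells. The 2 that fell were the Polycomb genes Ezh2 (-0.30, edgeR adjusted p = 0.030) and Suz12 (-0.26, 0.042). Neither passed without Smg6-deficient replicate 1 (0.16 and 0.35) or 2 (0.27 and 0.25).

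The nuclear receptors of the set were at most slightly lower. Nr5a2 (ENSMUSG00000026398; chromosome 1, 136842571 to 136960448), an activator of Pou5f1, stood at 53.9 and 60.3 CPM in Smg6-deficient cells, against 79.9 and 65.9 CPM in wild-type cells. The groups did not overlap, and the test was narrowly missed (log2 fold change -0.35, SE 0.12, edgeR adjusted p = 0.0503). It passed under 8 of 15 alternative settings, among them without wild-type replicate 2 (log2 fold change -0.50, edgeR adjusted p = 0.0023), and over all 15 the adjusted p ranged up to 0.29. The direction was lower in all 15.

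Nr0b1 (ENSMUSG00000025056; chromosome X, 86191764 to 86195947) is the one X-linked gene of the set, and its level overlapped between groups. It stood at 105 and 126 CPM in Smg6-deficient cells, against 118 and 129 CPM in wild-type cells. Its log2 fold change was -0.10 (SE 0.11, edgeR adjusted p = 0.51), and without Smg6-deficient replicate 1 it was 0.04 (0.90). Of 1040 tested X-linked genes, 590 fell and 37 rose, with a median log2 fold change of -0.76, and 20.4% had a value above that of Nr0b1. Among 19430 autosomal genes the median was 0.03, and 59.9% had a value above it. Mageb4, the next tested gene, 54307 bp further along, had 0.295 and 0.318 CPM in Smg6-deficient cells, against 4.62 and 4.70 CPM in wild-type cells, and fell by 3.92 on the log2 scale (edgeR adjusted p = 0.00012). Whether Nr0b1 differs from X-linked genes as a class was not tested.

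Other nuclear receptors and their co-repressors moved in both directions. Of 15 tested, 7 rose and 2 fell, with a median log2 fold change of 0.42. The retinoic acid receptor Rarg averaged 174 ± 9.20 CPM in Smg6-deficient cells and 68.3 ± 1.18 CPM in wild-type cells (SD, n = 2 each), a log2 fold change of 1.35 (edgeR adjusted p = 0.00020). The retinoid X receptor Rxrb rose by 0.78, while Rxra, another retinoid X receptor, fell by 0.65. Esrrb, which binds much the same DNA sequence as Nr5a2, fell by 0.53 on the log2 scale, a call that did not hold when Smg6-deficient replicate 1 was left out (edgeR adjusted p = 0.076). Nr5a1, the closest relative of Nr5a2, was at or below 0.202 CPM in all 4 libraries.

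Utf1 (ENSMUSG00000047751; chromosome 7, 139943789 to 139945112) was the one gene of the set that rose. It stood at 369 and 339 CPM in Smg6-deficient cells, against 204 and 156 CPM in wild-type cells, and the groups do not overlap. The log2 fold change was 0.98 (SE 0.14, edgeR adjusted p = 0.0022), a 1.97-fold higher level in Smg6-deficient cells, and 6.46% of tested genes rose further. Kndc1, a gene of a Ras exchange factor that ends 2252 bp before Utf1, rose by nearly the same amount (0.94, edgeR adjusted p = 0.0012), with 20.6 and 19.7 CPM in Smg6-deficient cells against 9.90 and 11.1 CPM in wild-type cells. Gm16201, a noncoding gene 5284 bp after Utf1, did not pass (0.20, edgeR adjusted p = 0.35).

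Tcl1 (ENSMUSG00000041359; chromosome 12, 105216750 to 105222793), the Akt coactivator, had the largest change of the set. It stood at 19.1 and 19.6 CPM in Smg6-deficient cells, against 126 and 96.3 CPM in wild-type cells. The Smg6-deficient libraries lie close together and far below both wild-type libraries. For Tcl1 the log2 fold change was -2.52 (SE 0.14, edgeR adjusted p = 0.00016), with 5.75-fold higher levels in wild-type cells, and 1.80% of tested genes fell further.

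The genes with the profile most like that of Tcl1 over the 4 libraries were found by the distance between centred log2 CPM values. Nearest, at a distance of 0.085, was ENSMUSG00000093605, which has no entry in the annotation used and whose count was 0.294 and 0.311 of that of Tcl1 in Smg6-deficient libraries and 0.318 and 0.312 in wild-type libraries. AA467197 on chromosome 2 (0.251; log2 fold change -2.33) and the mesothelin gene Msln on chromosome 17 (0.255; -2.30) came next. With 4 libraries such a likeness describes little more than a similar fold change.

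Of the relatives of Tcl1 and the kinases it activates, 3 are described. Mtcp1, an X-linked member of the Tcl1 family, stood at 5.51 and 5.98 CPM in Smg6-deficient cells, against 10.8 and 17.9 CPM in wild-type cells, and fell by 1.32 on the log2 scale (edgeR adjusted p = 0.0054). The kinase gene Akt1 had a log2 fold change of 0.42 (edgeR adjusted p = 0.0061) and Akt2 one of 0.26 (0.047). Akt1 lost its call without Smg6-deficient replicate 2 (0.062), and Akt2 without replicate 1 (0.30) or 2 (0.22) and with the correction for gene length (0.38). The 5 Tcl1b genes had too few counts to be tested.

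Fbxo15 (ENSMUSG00000034391; chromosome 18, 84934782 to 84981473) fell least among the called genes. It stood at 138 and 122 CPM in Smg6-deficient cells, against 255 and 213 CPM in wild-type cells, and the groups do not overlap. The log2 fold change was -0.85 (SE 0.12, edgeR adjusted p = 0.0021), with 1.80-fold higher levels in wild-type cells. Timm21, a gene of mitochondrial protein import that overlaps Fbxo15 on the opposite strand, stood at 12.0 and 13.5 CPM in Smg6-deficient cells, against 10.04 and 9.68 CPM in wild-type cells. Strand was not kept by the library kit, which leaves reads in the overlap unassignable. Of the 3 tested subunits of the SCF ubiquitin ligase that F-box proteins join, Skp1a fell by 0.62 on the log2 scale (edgeR adjusted p = 0.0048), and Cul1 (0.19) and Rbx1 (-0.11) did not pass.

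**Figure D2:**
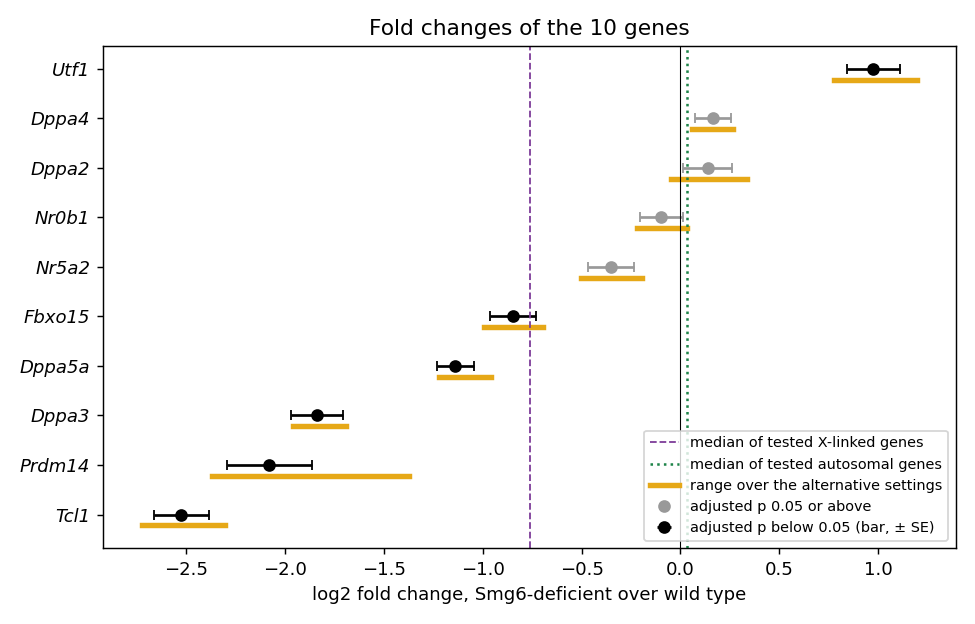
Log2 fold change of each gene, Smg6-deficient over wild type, with its SE (black, adjusted p below 0.05; grey, above), the range over 15 alternative settings in yellow, and the medians of tested X-linked (-0.76) and autosomal genes (0.03) as vertical lines. The yellow bars of Tcl1, Prdm14, Dppa3, Dppa5a, Fbxo15 and Utf1 stay on one side of 0, while those of Dppa2 and Nr0b1 cross it.

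The calls of the 6 genes past the threshold did not depend on the setting: each kept its direction and its call under all 15 alternatives. Over these, the log2 fold change ranged from -2.72 to -2.30 for Tcl1, -2.37 to -1.37 for Prdm14, -1.96 to -1.69 for Dppa3, -1.22 to -0.96 for Dppa5a, -0.99 to -0.70 for Fbxo15 and 0.78 to 1.19 for Utf1.

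The order of the genes by per-length level differed between the groups. In Smg6-deficient cells the deposited RPKM ran from Dppa5a (581 ± 48.2, SD, n = 2) through Utf1 (241 ± 23.3), Fbxo15 (75.6 ± 9.60), Nr0b1 (53.2 ± 4.62), Dppa4 (27.4 ± 0.59), Dppa2 (23.1 ± 0.33), Nr5a2 (12.4 ± 0.53), Tcl1 (8.75 ± 0.17) and Dppa3 (4.96 ± 0.66) to Prdm14 (0.935 ± 0.092). No neighbours in that order overlapped in their libraries. In wild-type cells Dppa5a was again highest, at 1321 ± 142 RPKM, and Prdm14 lowest, at 4.11 ± 1.38. Between them came Fbxo15 (140.4 ± 24.1) and Utf1 (127 ± 29.4), whose libraries overlapped, then Nr0b1 (58.8 ± 1.25) and Tcl1 (52.2 ± 12.1), which overlapped too, and then Dppa4 (25.3 ± 3.27), Dppa2 (21.7 ± 4.69), Dppa3 (18.3 ± 2.72) and Nr5a2 (16.4 ± 2.95), each overlapping the next. Dppa5a exceeded Utf1 2.39 and 2.44 times in Smg6-deficient libraries, against 9.62 and 11.5 times in wild-type libraries. Utf1 exceeded Fbxo15 3.13 and 3.26 times in Smg6-deficient libraries, while the ratio was 0.94 and 0.86 in wild-type libraries.

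**Figure D3:**
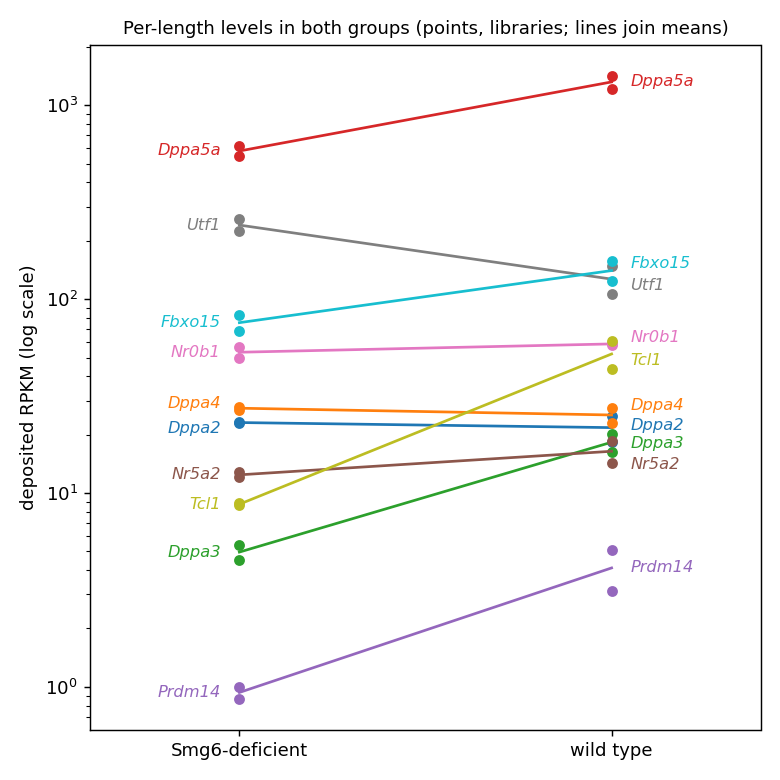
Deposited RPKM on a log axis, with a point for each library and a line joining the group means of each gene, Smg6-deficient on the left and wild type on the right. Utf1 and Fbxo15 change places between the groups, and Tcl1 lies below Nr5a2 in Smg6-deficient cells (8.75 against 12.4 RPKM) and next to Nr0b1 in wild-type cells.

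Replicates differed by less than the groups for the 6 called genes, but not for all of the other 4. The log2 ratio of replicate 2 over replicate 1 ranged from -0.19 for Dppa3 to 0.25 for Nr0b1 in Smg6-deficient cells and from -0.61 for Prdm14 to 0.13 for Nr0b1 in wild-type cells. Of the 10 genes, 5 were lower in replicate 2 than in replicate 1 among Smg6-deficient cells, and 9 among wild-type cells, against 52.3% and 50.1% of all tested genes.

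Annotated NMD-type transcripts are few among the 10 genes. In GENCODE M21, Tcl1 and Fbxo15 each have 1 transcript annotated as nonsense-mediated decay among 6, and the other 8 genes have 0. Dppa5a, Utf1, Prdm14 and Nr0b1 have a single annotated transcript each. Counts per gene do not separate transcripts, so the share of such forms was not analysed here.

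Around the set, other pluripotency factors moved in both directions. Of 29 tested, 11 fell and 7 rose, with a median log2 fold change of -0.03. Nanog averaged 156 ± 1.02 CPM in Smg6-deficient cells and 640.1 ± 121 CPM in wild-type cells (SD, n = 2 each). The T-box factor Tbx3 fell by 1.31 on the log2 scale and the growth factor gene Fgf4 by 1.30, while Gbx2, a homeobox factor, rose by 2.97. The median was -0.01 without wild-type replicate 1 and -0.22 without wild-type replicate 2. It was -0.24 without Smg6-deficient replicate 1 and -0.12 without Smg6-deficient replicate 2. With limma-trend, 5 were higher and 10 lower on log2(RPKM + 1), and 5 and 9 on log2(RPKM + 0.1). Of 20 tested formative and primed genes, 10 rose and 3 fell, with a median of 0.78. Wnt8a, a Wnt ligand, rose by 2.76 and Pou3f1, a POU factor of the formative epiblast, by 1.86, while Eomes, a T-box factor of the primitive streak and trophectoderm, fell by 1.42. The others that fell were Zic2 (-1.14, edgeR adjusted p = 0.023) and Zic5 (-0.70, 0.042), and neither passed with limma-trend on RPKM. Otx2 (-0.30, edgeR adjusted p = 0.064) and Fgf5 (-0.58, 0.27) were among those that did not pass. Without wild-type replicate 2, 11 of these 20 were higher and 7 lower.

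Dppa3 and Prdm14 also mark early germ cells. Of 15 tested germ cell genes, 10 fell and 1 rose, with a median log2 fold change of -0.68. With limma-trend, 8 were lower and 0 higher on both log2(RPKM + 1) and log2(RPKM + 0.1). The median was -0.81 without Smg6-deficient replicate 1 and -0.57 without Smg6-deficient replicate 2. Mael, described above among the reported Dppa2 and Dppa4 targets, is counted here too. Asz1, a piRNA pathway gene, averaged 0.343 ± 0.11 CPM in Smg6-deficient cells and 21.0 ± 2.61 CPM in wild-type cells (SD, n = 2 each). Dazl, an RNA-binding protein gene, fell by 2.03 on the log2 scale. Prdm1, a repressor that specifies germ cells together with Prdm14, fell by 1.87. Ddx4, a helicase gene of later germ cells, was at 42.7 and 48.9 CPM in Smg6-deficient cells, against 46.9 and 51.7 CPM in wild-type cells, and did not pass (edgeR adjusted p = 0.43). The gene that rose was Ifitm3 (0.84), which was picked after its value was seen.

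Markers of other cell types moved alongside. Of 20 endoderm genes, 16 rose and 3 fell, with a median log2 fold change of 2.36, and their summed level was 3848 and 5299 CPM in Smg6-deficient cells, against 1974 and 1886 CPM in wild-type cells. Cubn, an endocytic receptor of visceral endoderm, rose by 4.95 on the log2 scale, as did the endoderm transcription factors Sox17 by 4.49, Gata6 by 3.98 and Gata4 by 3.97. The Smg6-deficient replicates differed widely for these genes, with replicate 2 the higher. Cubn stood at 98.6 and 198.5 CPM in replicates 1 and 2, Sox17 at 20.2 and 37.3, Gata6 at 25.7 and 52.0, and Gata4 at 43.3 and 77.2. The 3 that fell were Afp (-1.69, edgeR adjusted p = 0.013), Hnf4a (-1.13, 0.026) and Apoe (-0.63, 0.0025). Wild-type levels were 0.371 and 0.583 CPM for Afp, 1.81 and 3.03 CPM for Hnf4a, and 793 and 851 CPM for Apoe. Without Smg6-deficient replicate 1, 1 endoderm gene was lower. Ttr, a plasma carrier protein gene, was the one endoderm marker at 0 in a library, wild-type replicate 2, and Apoa1, an apolipoprotein gene, stayed at or below 0.247 CPM. Ttr was called higher (3.64, edgeR adjusted p = 0.031), but it reached no more than 0.374 CPM. The part of other cell types in the changes of the 10 genes was not tested.

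Fibroblast markers, which feeder cells would bring, summed to 1816 and 1671 CPM in Smg6-deficient cells, against 1460 and 1063 CPM in wild-type cells, and none of the 16 was at 0 in all libraries. Of the 16 tested, 5 rose and 0 fell, with a median log2 fold change of 0.38. Fbn1, an elastic fibre gene, rose by 0.73. Timp3, a protease inhibitor gene, had 0.82 (edgeR adjusted p = 0.022), Pdgfrb, a growth factor receptor gene, 0.56 (0.044), and Col1a1, a collagen gene, 0.49 (0.049), and with the correction for gene length none of these 3 passed (0.064, 0.10 and 0.15). That correction left 1 of 16 higher, whereas without wild-type replicate 1 the number was 13 and without Smg6-deficient replicate 1 it was 2. Trophectoderm markers summed to 325 and 309 CPM in Smg6-deficient cells, against 257 and 181 CPM in wild-type cells, and of 10 tested 4 rose and 5 fell, with a median of -0.31. The keratin genes Krt8 and Krt18 rose by 1.88 and 1.66 and the placental factor Hand1 by 1.35. The transcription factors Elf5 (-1.86), Eomes (-1.42), Gata3 (-1.17), Ascl2 (-0.77) and Tfap2c (-0.66) were the 5 that fell. Elf5 stayed at or below 0.286 CPM in every library. Neither Elf5 nor Tfap2c passed on log2(RPKM + 1) (limma-trend adjusted p = 0.21 and 0.12). Cdx2, the factor that specifies this lineage, rose but stayed low, with 1.99 and 1.82 CPM in Smg6-deficient cells and 0.993 and 0.374 CPM in wild-type cells (log2 fold change 1.47, edgeR adjusted p = 0.029). Without either Smg6-deficient library, 3 trophectoderm genes were lower.

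**Figure D4:**
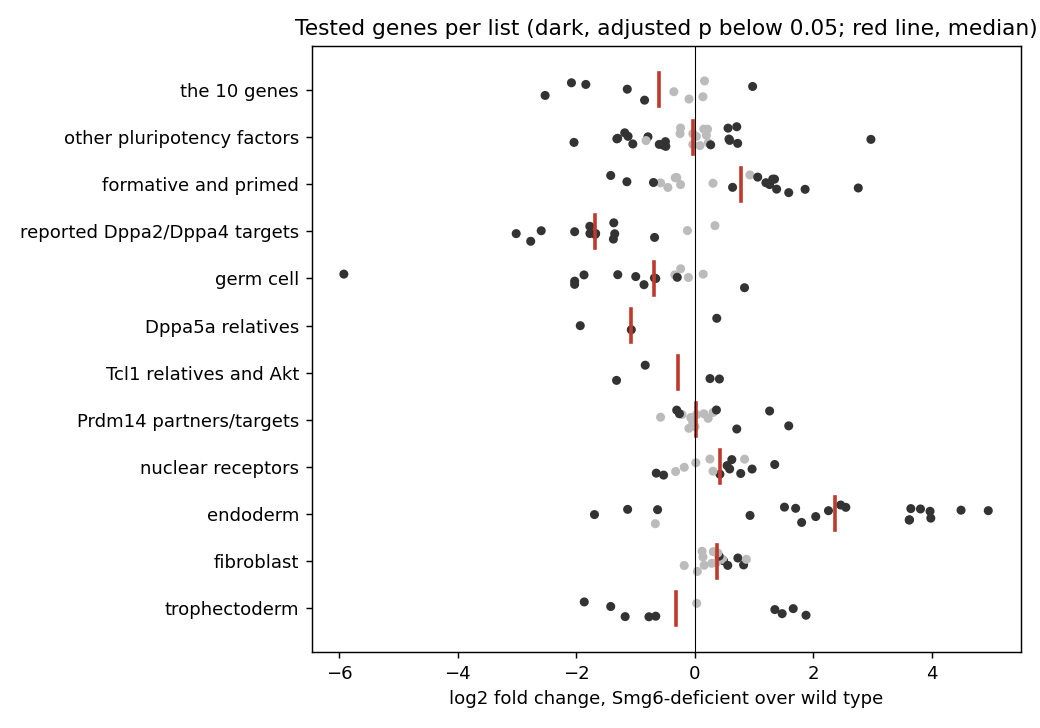
Log2 fold change, Smg6-deficient over wild type, of every tested gene in each list shown (dark points, adjusted p below 0.05; red line, the list's median; vertical scatter only separates points). The reported Dppa2 and Dppa4 targets lie almost all below 0 with a median of -1.67, endoderm genes mostly above it with 2.36, and the 10 genes on both sides with -0.60.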

How the data were processed

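RNA was extracted with TRIzol and made into libraries with a TruSeq v2 kit, which does not mark strand, and sequenced as single 50 nt reads, per the labels' protocols. TopHat2 2.0.9 and the build mm10 are named in the submitters' processing notes. The sources used here do not give the gene counter, its annotation or its handling of multiple alignments. The authors deposited, for each library, whole-number read counts and RPKM values per Ensembl gene, per the file headers. Symbols and positions came from GENCODE M21 (GRCm38, the assembly of mm10), which named 35449 of 37224 identifiers.

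Counts were filtered with filterByExpr (minimum count 10), TMM-scaled and tested with edgeR 4.0.16 in R 4.3.3 (quasi-likelihood, genotype as the only term, 2 residual degrees of freedom, common biological coefficient of variation 0.118). P-values were adjusted over 20895 genes at a threshold of 0.05. SE is the absolute log2 fold change over the square root of F. The fold changes from this test were checked on simulated counts with known changes, drawn with a coefficient of variation of 0.118 for every gene. The pass rule covered the median fold changes alone and not the rate of false calls. The genes and lists were chosen with earlier results of these data known. Lists are described by counts and medians. The named genes are the 10, up to 4 called genes per list with the largest change (mean log2 CPM of 1 or more), and the 3 profiles nearest to the gene with the largest change; other genes named are list members or neighbours picked after their values were seen. The values of 2 genes the rule named are not reported here. Alternatives used DESeq2 1.42.0 and limma 3.58.1.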

Additional observations from a re-analysis of the deposited data

How the results depend on the processing

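There were 15 alternatives: 3 other scalings, 2 other filters, the DESeq2 Wald test, limma-voom, limma-trend on RPKM with 2 pseudocounts, a replicate block, a gene length correction and leaving out each library. The number of the 10 genes called was 6 to 8. It was 8 without wild-type replicate 1, 7 without wild-type replicate 2 and 6 without either Smg6-deficient library. The number of all genes called, 8289, was 5141 to 10477 when a library was left out (5141 and 5197 without Smg6-deficient replicates 1 and 2), and a count from 1 library in a group assumes that it varies like the other group. With 1 library left out, the log2 fold change ranged from -0.0483 to 0.3391 for Dppa2 and from -0.2181 to 0.0351 for Nr0b1. The sign turned for Dppa2 without wild-type replicate 2 and for Nr0b1 without Smg6-deficient replicate 1, neither past the threshold. Nr5a2 was called under 8 settings: DESeq2 size factors, library size alone, TMM from autosomal genes, the 50-count filter, the DESeq2 Wald test, the replicate block, the gene length correction and without wild-type replicate 2. Replicate numbers are shared between the groups, and the deviations of same-numbered libraries correlated at 0.196 across 12344 genes, but 2 pairs with no stated pairing do not show that the numbers pair the samples. With the replicate block 9687 genes and 7 of the 10 were called, the added one being Nr5a2 (-0.35, edgeR adjusted p = 0.019), and 117 of 158 listed other genes against 104 without it. Depth did not limit the 10 genes, whose lowest count in a library was 372 (Prdm14).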
